A study of Mus musculus with 36 samples.

Results

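The data described here are the TBP binding sites that lie between genes in mouse embryonic stem (ES) cells. They were taken from 4 lists of TBP peak summits, 1 for each cell line and treatment. A summit is the position of strongest signal in a peak. A nuclear summit was counted as intergenic when it lay inside no RefSeq gene and more than 500 bp from both ends of every gene in the mm10 assembly. This held for 2338 of 9327 nuclear summits. The rest comprised 4474 summits within 500 bp of a gene end and 2515 inside genes away from their ends.

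TBP was mapped by CUT&RUN, in which an antibody directs a nuclease to cut the chromatin around the bound protein. RT7 cells have the genotype R26CreERT2/+;Taf7flox/flox and RT10 cells R26CreERT2/+;Taf10flox/flox. The groups were RT7 with 4-hydroxytamoxifen (4-OHT), RT7 with ethanol (EtOH), RT10 with 4-OHT and RT10 with EtOH, each treated from day 1 to day 3 after plating. 4-OHT activates the Cre recombinase expressed from the Rosa26 locus to delete the floxed gene, and EtOH is the solvent control. All groups carry the CreERT2 allele, and no group without a floxed gene was used here, so effects of 4-OHT or Cre alone cannot be told apart from loss of the gene. Each genotype is a single line, so the line and the floxed gene cannot be told apart either. Each group has 2 TBP libraries in the labels and 1 list with no replicate number, so no difference between treatments could be tested. The summit files cannot show how completely TAF7 or TAF10 was lost. Peak names pair TBP with IgG, and the IgG libraries titled RT10 4-OHT and RT7 EtOH carry the opposite treatment in another label, so the control behind these 2 lists is uncertain.

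TBP is the DNA-binding core of TFIID, in which it is joined by TBP-associated factors such as TAF7 and TAF10 and placed at RNA polymerase II promoters. It is also part of factors that act with RNA polymerase I and RNA polymerase III, the polymerase that makes tRNA. Between genes, general transcription factors are known at active enhancers, which are themselves transcribed, and at promoters missing from the gene annotation. In ES cells, large clusters of enhancers lie beside genes that maintain pluripotency, among them Nanog, Klf4, Sox2 and the miR-290 cluster.

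The intergenic share was similar in the 4 lists. The RT7 4-OHT list held 326 intergenic summits among 1377 nuclear ones (23.7%, exact 95% interval 21.5 to 26.0%), against 655 of 2664 in RT7 EtOH (24.6%, 23.0 to 26.3%). The RT10 4-OHT list held 563 of 2186 (25.8%, 23.9 to 27.6%), against 794 of 3100 in RT10 EtOH (25.6%, 24.1 to 27.2%). The 4 intervals overlap, so the share of TBP summits between genes did not separate the groups. Intervals of shares cover counting error only. The number of intergenic summits in 4-OHT was 49.8% of that in EtOH in RT7 cells and 70.9% in RT10 cells, beside 51.7% and 70.5% over all nuclear summits of these lines. In RT7 it was 57.5% at gene ends and 43.1% inside genes, so the intergenic value lay between these, and in RT10 it was 69.7% at gene ends and 71.5% inside genes.

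Intergenic summits scored lower than summits at gene ends in each list. The score that the authors deposited is taken to be the −log10 of the q-value at the summit, which is inferred from its format and lowest values. It is read only against other summits of the same list. The intergenic median was 4.44 in RT7 4-OHT and 5.57 in RT7 EtOH, beside 6.30 and 7.22 at gene ends of the same lists. In RT10 4-OHT and RT10 EtOH it was 5.17 and 5.45, beside 7.27 and 7.21 at gene ends. Intergenic summits still took 12 of the 100 highest places in the RT7 4-OHT list, 15 in RT7 EtOH, 11 in RT10 4-OHT and 15 in RT10 EtOH. Their highest rank was 14 in RT7 4-OHT, 16 in RT7 EtOH, 7 in RT10 4-OHT and 10 in RT10 EtOH, so some of the strongest TBP peaks of these cells lie away from any annotated gene end.

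The median distance of an intergenic summit to the nearest gene end was 5803 bp in RT7 4-OHT, 6538 bp in RT7 EtOH, 7189 bp in RT10 4-OHT and 6546 bp in RT10 EtOH. Most were thus several kilobases from a gene, and the most distant lay 354269 bp away, in RT7 EtOH. Of the RT7 4-OHT summits, 86 lay at 0.5 to 2 kb, 125 at 2 to 10 kb and 115 over 10 kb from a gene end, against 145, 260 and 250 in RT7 EtOH. The RT10 4-OHT list held 113, 222 and 228 in these classes, against 168, 334 and 292 in RT10 EtOH. Each class had fewer summits in 4-OHT than in EtOH in both lines.

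**Figure D1:**
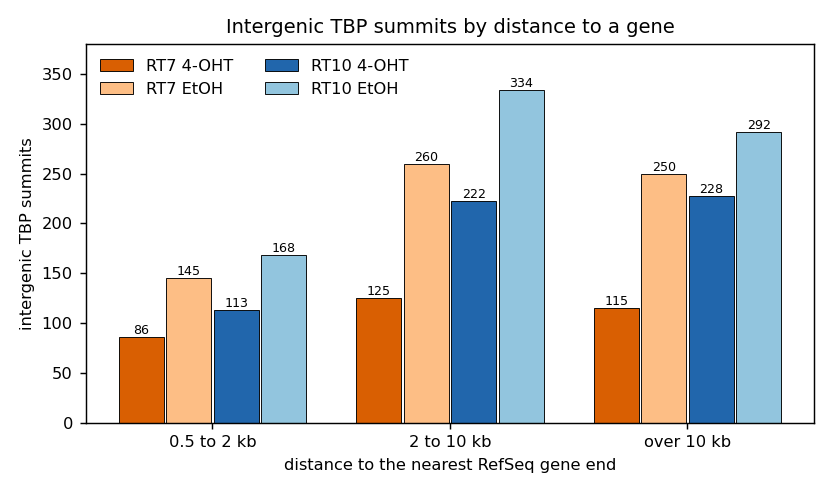
Bars give the number of intergenic TBP summits in each of the 4 lists (vertical axis), by distance to the nearest RefSeq gene end (horizontal axis); there is 1 list per group, so there are no error bars. Each distance class holds fewer summits in 4-OHT than in EtOH, from 86 against 145 in the nearest class of RT7 to 228 against 292 in the farthest class of RT10.

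Whether the same positions were bound with and without the deletion was asked by counting EtOH summits as kept if a 4-OHT summit of the same line lay at most 250 bp away. In RT7 cells 217 of 655 intergenic EtOH summits were kept in 4-OHT (33.1%, 29.5 to 36.9%), beside 38.7% of all nuclear EtOH summits. In RT10 cells 366 of 794 were kept (46.1%, 42.6 to 49.6%), beside 48.1% of all nuclear EtOH summits. The share was higher in RT10 cells, whose 4-OHT list is also longer. The RT7 interval lies below the share over its whole list, and the RT10 interval includes it. When all lists were shortened to the 1377 highest-scoring summits, 52.9% of intergenic EtOH summits were kept in RT7 and 59.8% in RT10. Kept summits were a median of 62.0 bp from their partner in RT7 and 66.5 bp in RT10. A missing summit shows that no peak passed the authors' threshold, and TBP may still have been bound.

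Intergenic summits were kept less often than those at gene ends, of which 46.2% were kept in RT7 and 52.6% in RT10, and about as often as those inside genes (30.6% in RT7 and 42.5% in RT10). The kept share went with the score. Each EtOH list was divided into 4 equal bands by score. In the highest band of RT7 EtOH 74.8% of intergenic summits were kept, beside 82.1% at gene ends, and in the lowest band 13.8%, beside 17.5% at gene ends. In the highest band of RT10 EtOH 86.1% of intergenic summits were kept, beside 84.7% at gene ends, and in the lowest band 18.5%, beside 25.6%. Within each band the intervals for intergenic and gene-end summits overlap in both lines. By distance, 34.5% of RT7 EtOH summits were kept at 0.5 to 2 kb, 33.8% at 2 to 10 kb and 31.6% over 10 kb. In RT10 the nearest class was lowest, with 35.1% kept at 0.5 to 2 kb (27.9 to 42.8%), 47.6% at 2 to 10 kb (42.1 to 53.1%) and 50.7% over 10 kb (44.8 to 56.6%).

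**Figure D2:**
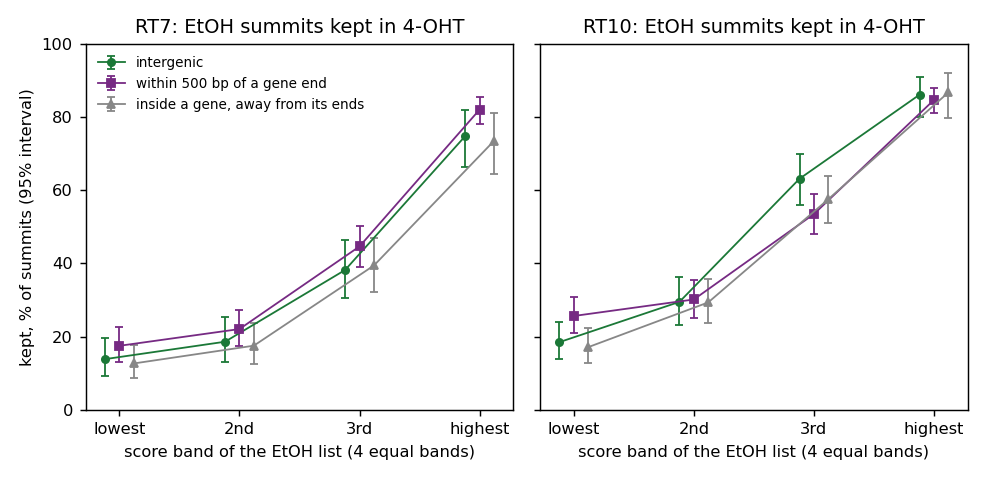
Points give the percentage of EtOH summits that have a 4-OHT summit of the same line within 250 bp (vertical axis, exact 95% intervals) in each of 4 equal score bands of the EtOH list (horizontal axis), for RT7 on the left and RT10 on the right. The kept share of intergenic summits increases with score in both lines, with 13.8% in the lowest and 74.8% in the highest band in RT7, and 18.5% and 86.1% in RT10, close to the curves for gene ends and gene interiors.

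Seen from the 4-OHT side, an RT7 EtOH summit lay within 250 bp of 218 of 326 intergenic RT7 4-OHT summits (66.9%, 61.5 to 72.0%), beside 75% of all nuclear RT7 4-OHT summits. In RT10 this held for 366 of 563 (65.0%, 60.9 to 68.9%), beside 68.2% over the whole list. These shares were lower than those at gene ends, which were 79.5% in RT7 and 75.1% in RT10. Between the lines, 187 of 326 intergenic RT7 4-OHT summits had an RT10 4-OHT summit (57.4%, against 68.2% over the list), and 386 of 655 intergenic RT7 EtOH summits had an RT10 EtOH summit (58.9%, against 65% over the list). In the other direction 184 of 563 intergenic RT10 4-OHT summits had an RT7 4-OHT summit (32.7%, against 43% over the list), and 384 of 794 intergenic RT10 EtOH summits had an RT7 EtOH summit (48.4%, against 55.7% over the list). The intergenic share was below that of the whole list in each of these comparisons, although for RT10 4-OHT summits with an EtOH partner its interval included the share over the list.

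Summits of the 4 lists were joined into 4593 sites by gaps of at most 250 bp. Of these, 1236 were intergenic, 22 mixed intergenic and other summits, and 3335 held no intergenic summit. Among the intergenic sites 661 had a summit in 1 list (53.5%), 245 in 2 (19.8%), 172 in 3 (13.9%) and 158 in all 4 (12.8%). Of the sites with no intergenic summit, 46.7% were in 1 list and 20% in all 4. Most intergenic sites thus rest on 1 list, and these scored low: the median within-list score percentile, the percentage of nuclear summits of a list that score lower, was 22.6 for sites in 1 list and 67.7 for sites in all 4. Sites in all 4 lists made up 8.54% of those at 0.5 to 2 kb, 14.6% at 2 to 10 kb and 13.5% over 10 kb.

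A summit in both EtOH lists, matched here within 1000 bp, was found for 535 intergenic sites. Both 4-OHT lists also had one for 246 of them (46.0%), and neither 4-OHT list had one for 90 (16.8%). The RT10 4-OHT list alone had one for 158 and the RT7 4-OHT list alone for 41. Only 4 sites had, within this distance, summits in both 4-OHT lists and neither EtOH list. By the summits joined into a site itself, 10 sites were in both 4-OHT lists only and 81 in both EtOH lists only. The same was not counted for sites without intergenic summits, so these counts cannot show a trait particular to intergenic sites. At the 158 sites in all 4 lists the median percentile was 55.7 in RT7 4-OHT and 75 in RT7 EtOH, and 71.7 in RT10 4-OHT and 81.9 in RT10 EtOH. The percentile was lower in 4-OHT than in EtOH at 124 of the 158 in RT7 (78.5%) and at 109 in RT10 (69.0%). At the 666 sites without intergenic summits in all 4 lists these shares were 77.3% in RT7 and 64.6% in RT10. The 4-OHT lists are shorter, and a percentile in lists of different lengths does not show a change in binding. Percentiles are therefore given below only to place a site within its own list.

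Leading sites were taken as the 5 sites of each distance class with the highest mean percentile among those in most lists. Among sites in all 4 lists the highest lay on chromosome 6 at position 128838302, 3968 bp from the lncRNA gene LOC115490435 and 9742 bp from the protein-coding gene BC035044. Its score was 41.7 in RT7 4-OHT, 61.3 in RT7 EtOH, 87.4 in RT10 4-OHT and 69.5 in RT10 EtOH. It stood at percentile 98.9, 99.4, 99.7 and 99.3 of these lists, so it was among the strongest TBP sites with either treatment in both lines. Among sites over 10 kb from any gene end, the first was on chromosome 19 at 23087739, 11833 bp from the lncRNA gene C330002G04Rik. It scored 27.9 in RT7 4-OHT, 53.3 in RT7 EtOH, 52.6 in RT10 4-OHT and 54.6 in RT10 EtOH. The most isolated of the 5 leading sites of this class was on chromosome 16 at 25517584, 74311 bp from the pseudogene Gm18896 and 93996 bp from Tprg. It scored 31.8 in RT7 4-OHT, 40.2 in RT7 EtOH, 31.7 in RT10 4-OHT and 43.8 in RT10 EtOH. The lowest percentile of these 3 sites in any list was 94.8, that of the Tprg site in RT10 4-OHT.

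The other sites that led the class over 10 kb were on chromosome 5 at 116382863, 25628 bp from Hspb8, which encodes a small heat shock protein, on chromosome 9 at 31018864, 10856 bp from the 5′ end of the zinc finger gene Zbtb44, and in the chromosome 6 group described further down. The Hspb8 site scored 27.8 in RT7 4-OHT, 56.3 in RT7 EtOH, 37.3 in RT10 4-OHT and 57.1 in RT10 EtOH. The Zbtb44 site scored 25.1 in RT7 4-OHT, 53.3 in RT7 EtOH, 27.5 in RT10 4-OHT and 68.0 in RT10 EtOH. Their percentiles lay between 93.0 and 96.2 in the 4-OHT lists and between 98.6 and 99.1 in the EtOH lists, near the top of each.

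At 2 to 10 kb the leading sites after the one near LOC115490435 were those of Nanog, Nkain1, Gabrp and a histone and tRNA gene cluster on chromosome 13. The site on chromosome 4 at 130520279, 9852 bp from the 3′ end of Nkain1, scored 24.5 in RT7 4-OHT, 38.6 in RT7 EtOH, 23.3 in RT10 4-OHT and 68.7 in RT10 EtOH. The site on chromosome 11 at 33537604, 13177 bp from the GABA receptor subunit gene Gabrp, scored 26.8 in RT7 4-OHT, 51.8 in RT7 EtOH, 19.3 in RT10 4-OHT and 40.5 in RT10 EtOH. The lowest percentile of either was 88.2, that of the Gabrp site in RT10 4-OHT.

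Closest to genes, at 0.5 to 2 kb, the leading sites included those of Ier2, Lax1 and Shf. The site 1254 bp from Ier2, an immediate early gene, scored 13.6 in RT7 4-OHT, 38.7 in RT7 EtOH, 18.8 in RT10 4-OHT and 32.4 in RT10 EtOH. The site 1571 bp from the 5′ end of Lax1, an adaptor protein gene, scored 6.34 in RT7 4-OHT, 18.2 in RT7 EtOH, 18.0 in RT10 4-OHT and 32.4 in RT10 EtOH. The site 1287 bp from the 5′ end of Shf, on chromosome 2 at 122370434, scored 5.66 in RT7 4-OHT, 12.2 in RT7 EtOH, 41.2 in RT10 4-OHT and 25.1 in RT10 EtOH. The Shf site was thus near the top of both RT10 lists, at percentiles of 96.9 in 4-OHT and 91.9 in EtOH, and in the middle of the RT7 4-OHT list, at 50.3.

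**Figure D3:**
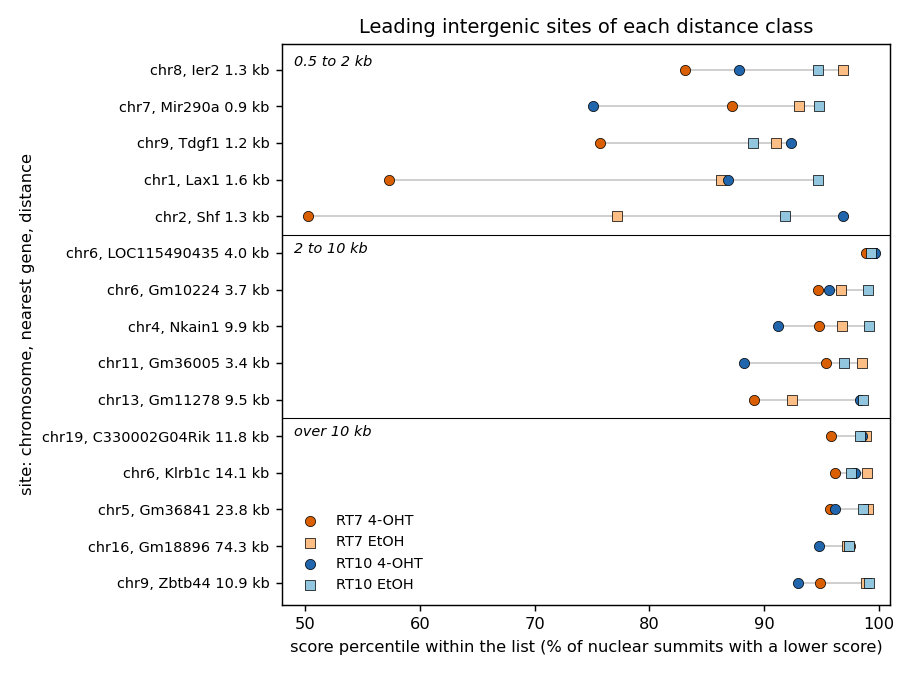
Each row is 1 of the 15 leading intergenic sites, 5 per distance class, named by chromosome, nearest gene and distance to its end; points give the score percentile of its summit in each list (horizontal axis). The leading sites over 2 kb from a gene stay in the upper part of each list, while the 0.5 to 2 kb sites near Lax1 and Shf spread down to percentiles of 57.3 and 50.3 in RT7 4-OHT. All were selected for a high mean percentile, from 24 sites in all 4 lists at 0.5 to 2 kb, 71 at 2 to 10 kb and 63 over 10 kb. The rows therefore do not compare the distance classes.

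Genes that maintain or mark pluripotency were among the neighbours. Of 32 such genes in a fixed list, 16 were the nearest protein-coding gene of at least 1 intergenic site (50%), beside 848 of all 21887 protein-coding genes (3.87%). How much intergenic sequence surrounds each gene was not taken into account. The gene list was chosen with earlier results of these data known, so the share cannot show a preference for these genes. Together they had 39 sites, of which 9 were in all 4 lists (23.1%, beside 12.8% of all intergenic sites). A summit was present at 12 of the 39 in RT7 4-OHT, against 21 in RT7 EtOH, and at 25 in RT10 4-OHT, against 29 in RT10 EtOH. The 4-OHT count was 57.1% of the EtOH count in RT7 and 86.2% in RT10, beside 49.1% and 70.6% over all intergenic sites.

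The strongest was 4698 bp upstream of the 5′ end of Nanog, which encodes a homeodomain factor of the pluripotency network and has a known enhancer at about this distance. This site, on chromosome 6 at 122702791, scored 24.4 in RT7 4-OHT, 38.4 in RT7 EtOH, 35.1 in RT10 4-OHT and 63.3 in RT10 EtOH. It stood at percentile 94.7, 96.7, 95.7 and 99.0 of these lists, near the top of each. A second Nanog site, 17150 bp from the 5′ end, was called in RT7 EtOH only, with a score of 5.57. Dppa3, a marker gene of naive ES cells and germ cells, had 1 site, in RT7 EtOH only, with a score of 7.18.

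Klf4, a Krüppel-like factor used in reprogramming, had 3 sites in all 4 lists, 49588, 51456 and 62731 bp beyond its 3′ end, where enhancers of Klf4 are known in ES cells. The middle one scored 23.8 in RT7 4-OHT, 32.1 in RT7 EtOH, 19.6 in RT10 4-OHT and 31.3 in RT10 EtOH. The nearest to Klf4 scored 12.8 in RT7 4-OHT, 13.2 in RT7 EtOH, 30.3 in RT10 4-OHT and 31.3 in RT10 EtOH. The farthest scored 3.10 in RT7 4-OHT, 3.57 in RT7 EtOH, 12.7 in RT10 4-OHT and 22.3 in RT10 EtOH, low within both RT7 lists and high within both RT10 lists. Klf2, a related factor, had a site in all 4 lists 2782 bp from its 5′ end, which scored 3.77 in RT7 4-OHT, 8.31 in RT7 EtOH, 8.24 in RT10 4-OHT and 11.7 in RT10 EtOH.

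Sox2, the partner of OCT4, had no intergenic site near the gene, where a gene-end summit was called. Its 4 intergenic sites lay 92924 to 108876 bp beyond its 3′ end, the stretch known to hold its ES cell control region. The first of them was in all 4 lists, with scores of 3.10 in RT7 4-OHT, 6.49 in RT7 EtOH, 5.17 in RT10 4-OHT and 11.6 in RT10 EtOH. The other 3 were absent from 1 or 2 lists. The site 105646 bp away scored 6.78 in RT10 4-OHT and 9.10 in RT10 EtOH, and was absent from RT7 4-OHT against a score of 5.08 in RT7 EtOH. These were modest summits, with percentiles between 17.1 in RT7 4-OHT and 74.9 in RT10 EtOH.

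Tdgf1, which encodes the NODAL co-receptor Cripto, had a site 1207 bp from its 5′ end that scored 10.8 in RT7 4-OHT, 23.1 in RT7 EtOH, 26.2 in RT10 4-OHT and 20.7 in RT10 EtOH. Jarid2, a cofactor of the Polycomb complex PRC2, had 2 sites in all 4 lists, 8486 and 25110 bp from its 5′ end. The nearer scored 2.78 in RT7 4-OHT, 11.5 in RT7 EtOH, 4.42 in RT10 4-OHT and 17.5 in RT10 EtOH. Id3, a BMP-responsive inhibitor of differentiation, had a site 1537 bp from its 3′ end that scored 8.15 in RT7 4-OHT, 26.5 in RT10 4-OHT and 19.1 in RT10 EtOH, and was not called in RT7 EtOH. Tfcp2l1, Zfp42, Prdm14, Tbx3, Klf5, Lefty2, Otx2 and Dppa5a had sites in at most 3 lists, and the other 16 genes of the list, such as Pou5f1 and Esrrb, were nearest to none.

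**Figure D4:**
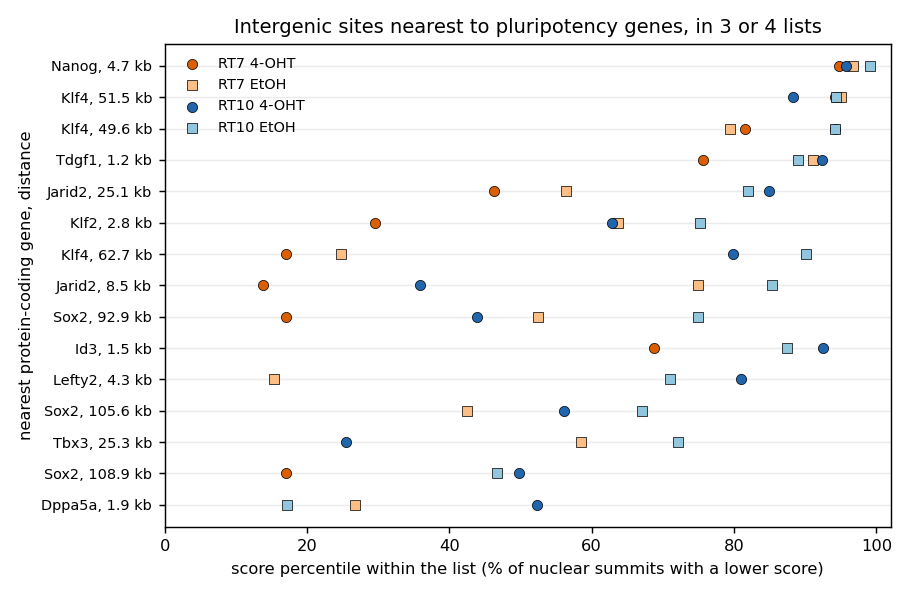
Rows are the 15 intergenic sites in 3 or 4 lists whose nearest protein-coding gene is on the pluripotency list, with the distance to that gene; points give the score percentile in each list (horizontal axis), and a missing point means no summit. Nanog and the middle Klf4 site stay at percentile 88.3 or higher in each list, while the farthest Klf4 site has a percentile of 17.1 in RT7 4-OHT, 24.7 in RT7 EtOH, 79.8 in RT10 4-OHT and 90.1 in RT10 EtOH.

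The largest group of intergenic sites without any gene inside lay upstream of the miR-290 cluster, which encodes abundant microRNAs of ES cells known to promote their rapid cell cycle. On chromosome 7, from 3193326 to 3217712, 10 intergenic sites spanned 24387 bp and ended 914 bp before Mir290a, the first gene of the cluster. The cluster is on the plus strand of GRCm38.p6, so the sites precede it. Mature sequences from some 3′ arms of the cluster, taken from RefSeq, are given to show what the neighbouring transcript encodes. The list is not complete. They are no sequence of the TBP sites themselves, which was not analysed here. Capitals mark the seed, bases 2 to 8, which selects the targets.
mmu-miR-291a-3p: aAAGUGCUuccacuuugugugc
mmu-miR-294-3p: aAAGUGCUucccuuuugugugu
mmu-miR-295-3p: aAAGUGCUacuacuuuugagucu
mmu-miR-290a-3p: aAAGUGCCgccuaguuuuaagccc
mmu-miR-291b-3p: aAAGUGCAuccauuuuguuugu
mmu-miR-293-3p: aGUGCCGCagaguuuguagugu
The first 3 share the seed AAGUGCU. Those of miR-290a and miR-291b differ from it in the last seed base only, and miR-293 has another seed, GUGCCGC.

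Of the 10 sites, 6 were in all 4 lists, the most of any of the 100 groups described further down. The site 11860 bp before Mir290a scored 11.1 in RT7 4-OHT, 25 in RT7 EtOH, 25.3 in RT10 4-OHT and 57.1 in RT10 EtOH. The site 17181 bp before it scored 10.8 in RT7 4-OHT, 41.7 in RT7 EtOH, 12.3 in RT10 4-OHT and 38.2 in RT10 EtOH. The site 914 bp before it scored 16.5 in RT7 4-OHT, 26.2 in RT7 EtOH, 11.3 in RT10 4-OHT and 32.6 in RT10 EtOH. Within its list, each of these 3 was at percentile 75.1 or higher. The site 6316 bp away scored 10.8 in RT7 4-OHT, 14.8 in RT7 EtOH, 24.4 in RT10 4-OHT and 13.4 in RT10 EtOH. The number of sites with a summit hardly differed, at 8 in RT7 4-OHT against 7 in RT7 EtOH and 6 in RT10 4-OHT against 7 in RT10 EtOH.

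Such grouping was not limited to this stretch, although it was not counted for sites without intergenic summits. Sites within 100 kb of each other formed 100 groups of at least 3 sites, which held 449 of the 1236 intergenic sites (36.3%), while 547 sites stood alone (44.3%). The span of a group ran from 879 to 180031 bp, with a median of 18261 bp, and 55 of the 100 groups held no gene. Of the sites in groups, 17.6% were in all 4 lists, beside 10.0% of the sites outside them. In RT7, 63 groups had fewer sites with a summit in 4-OHT than in EtOH, 30 had as many and 7 had more. In RT10, 43 had fewer, 34 as many and 23 more. Over all groups, 147 sites had a summit in RT7 4-OHT against 238 in RT7 EtOH (61.8%), and 238 in RT10 4-OHT against 277 in RT10 EtOH (85.9%). For all intergenic sites, which include the group members, the 4-OHT count was 49.1% of the EtOH count in RT7 and 70.6% in RT10. A summit of any list could bring a group to 3 sites, and scores were not matched. These proportions therefore do not show that grouped sites differ from the others.

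The 2 largest groups lay on chromosome 13 among tRNA and histone genes. One ran from 23402637 to 23582667 and held 23 intergenic sites, 33 tRNA genes and 58 sites at or inside genes. The other ran from 21853970 to 22032789 and held 19 intergenic sites, 30 tRNA genes and 46 other sites. Their sites were mostly in 1 list and nearest to a tRNA gene, which RNA polymerase III transcribes. Of all 49 intergenic sites nearest to a tRNA gene, 37 had a gene-end summit within 2 kb (75.5%), beside 8.50% of all 1236. Of their 5 sites in all 4 lists, the 3 strongest are given. The site at 21865730, 9503 bp from the pseudogene Gm11278, scored 17.9 in RT7 4-OHT, 25 in RT7 EtOH, 51.4 in RT10 4-OHT and 57.1 in RT10 EtOH. The site at 23492185, 3327 bp from the 5′ end of Btn2a2, scored 10.8 in RT7 4-OHT, 20.6 in RT7 EtOH, 22.8 in RT10 4-OHT and 20.9 in RT10 EtOH. The site at 23513814, 3389 bp from the glycine tRNA gene n-TGgcc6, scored 13.4 in RT7 4-OHT, 18.2 in RT7 EtOH, 15.7 in RT10 4-OHT and 15.7 in RT10 EtOH, at nearly the same percentile in each list.

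A group of 11 sites on chromosome 6, from 128747250 to 128845872, lay between Klrb1 and BC035044 and spanned Klrb1c and Klrb1b, which belong to a family of lectin-like receptor genes of natural killer cells. It holds the site near LOC115490435 that leads the sites in all 4 lists, given above. A second site in all 4 lists, at 128764354 and 14131 bp from the 3′ end of Klrb1c, scored 29.1 in RT7 4-OHT, 54.8 in RT7 EtOH, 47.0 in RT10 4-OHT and 45.2 in RT10 EtOH. Both stood at percentile 96.2 or higher in each list, and the group held 8 further sites at or inside genes. At 128760305 a summit scored 29.1 in RT10 4-OHT and 45.5 in RT7 EtOH, while 636 bp away, at 128760941, one scored 13.7 in RT7 4-OHT and 31.5 in RT10 EtOH. These 2 sites therefore divided the 4 lists between them. At 128759980, 325 bp from the first, a weaker summit scored 5.46 in RT7 4-OHT and 4.53 in RT10 4-OHT and was in neither EtOH list, so summits of all 4 lists lay within this short stretch. Of the 37 genes of the killer cell receptor families by symbol, 3 were nearest to an intergenic site (8.11%, beside 3.87% of all protein-coding genes). Among them were Klrb1 and Klrb1c of this group, which holds 7 of the 8 sites of the 3 genes. The group was known when the gene list was chosen, so the share cannot show a preference for these families.

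The group around Ier2 on chromosome 8, from 84647677 to 84664846, had 9 sites. Besides the site 1254 bp from the gene, it held the highest-scoring intergenic summit of the RT10 EtOH list, at 84653232 and 8099 bp from Ier2. This site scored 67.6 in RT10 4-OHT and 90.3 in RT10 EtOH, at the same base in both, and neither RT7 list had a summit within 1000 bp. It was thus called in 1 line only, regardless of treatment. All 9 sites had a summit in RT10 EtOH, against 4 in RT10 4-OHT, while 2 had one in RT7 4-OHT against 3 in RT7 EtOH.

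On chromosome 19, from 5803399 to 5850102, 8 sites followed the 5′ end of Malat1 and surrounded Neat1, both abundant nuclear lncRNAs, up to Frmd8. The site 7387 bp from the 5′ end of Malat1 scored 18.9 in RT7 4-OHT, 12.5 in RT7 EtOH, 5.17 in RT10 4-OHT and 17.4 in RT10 EtOH. It was at percentile 43.9 in RT10 4-OHT and at 77.5 or higher in the other 3 lists. A site 1199 bp from Neat1 was in both 4-OHT lists, with scores of 8.65 in RT7 and 24.0 in RT10, and in neither EtOH list at that position. A further RT7 EtOH summit lay 537 bp from it, so the stretch was not free of TBP peaks in RT7 EtOH.

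**Figure D5:**
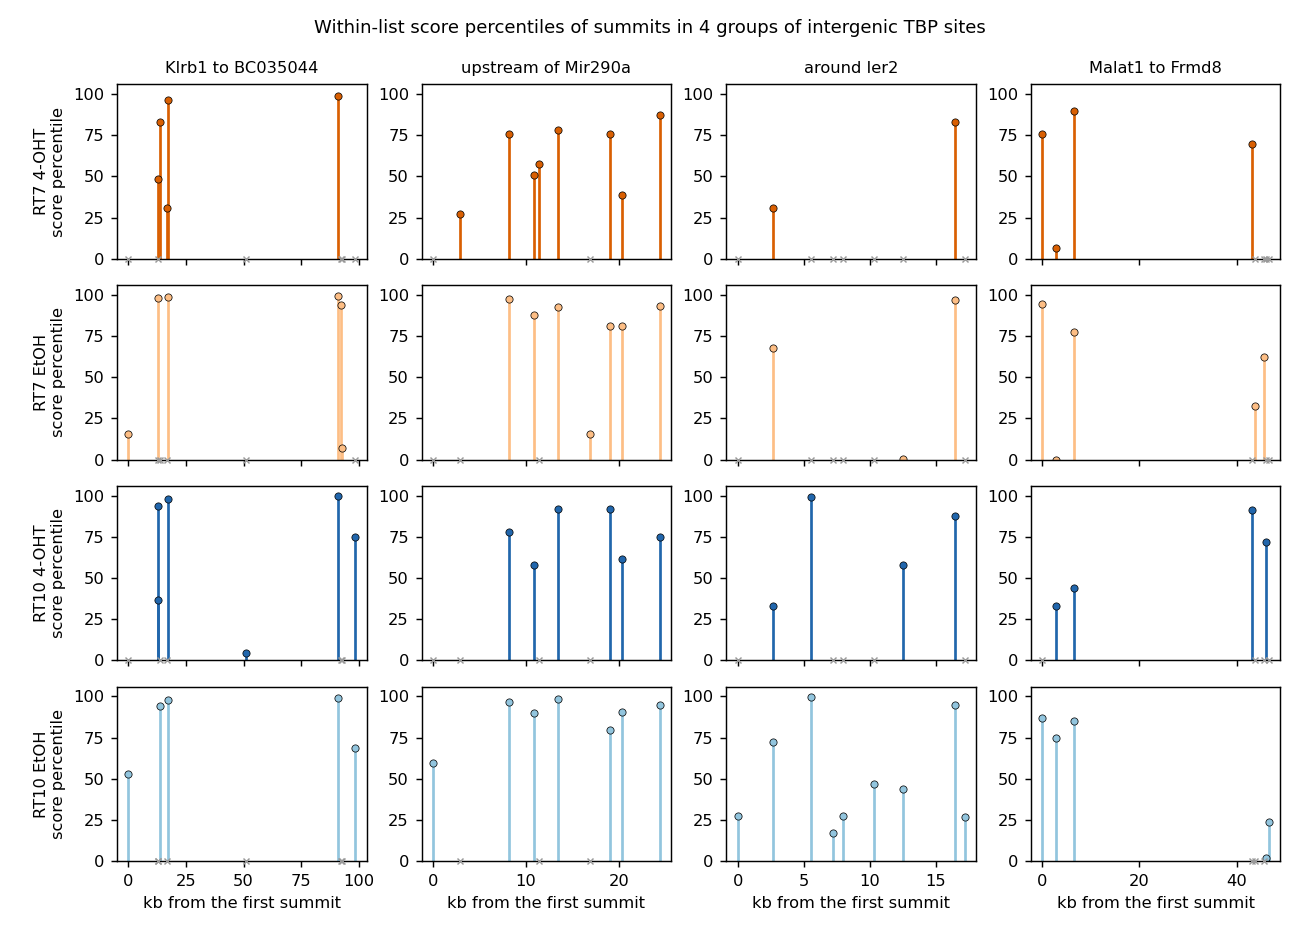
Each column is 1 group of intergenic sites and each row 1 list; stems give the score percentile of the summit at each site (vertical axis) by distance in kb from the first summit of the group (horizontal axis), and grey crosses mark sites with no summit in that list. The 6 sites upstream of Mir290a are present in each list, and the tall stem early in the Ier2 group is present in the 2 RT10 lists only.

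Immediate early and stress genes were the nearest protein-coding gene of 15 sites, at 7 of 20 genes of the list (35.0%, beside 3.87% of all protein-coding genes). Ier2 alone was nearest to 7 of the 15. This list too was chosen with earlier results known, and surrounding intergenic sequence was not considered, so the share cannot show a preference. Of the 15 sites 3 had a summit in RT7 4-OHT against 7 in RT7 EtOH, and 7 in RT10 4-OHT against 11 in RT10 EtOH. The 4-OHT count was 42.9% of the EtOH count in RT7 and 63.6% in RT10, beside 49.1% and 70.6% over all intergenic sites. Junb, an AP-1 subunit, had a site 1192 bp from its 5′ end in all 4 lists. It scored 8.29 in RT7 4-OHT, 1.69 in RT7 EtOH, 2.81 in RT10 4-OHT and 2.64 in RT10 EtOH, at percentiles of 69.8 in RT7 4-OHT and at most 13.6 in the other 3 lists. Hspa8, which encodes the constitutive HSP70, had a site 1196 bp away that was absent from RT7 4-OHT and scored 4.68 in RT7 EtOH, 3.68 in RT10 4-OHT and 4.93 in RT10 EtOH.

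Histone genes were nearest to 31 sites, at 13 of 97 genes (13.4%). Zinc finger genes by symbol were nearest to 33 sites, at 22 of 397 genes (5.54%), and 1 of those sites was in all 4 lists, 26356 bp from the 5′ end of Zfp958. Olfactory and vomeronasal receptor genes, silent in ES cells, were nearest to 7 sites, at 7 of 1465 genes (0.478%), below the 3.87% of all protein-coding genes. These lists too were chosen with earlier results known, so their shares cannot show a preference or its absence. An RNA polymerase III gene lay within 10 kb of 67 sites (5.42%), of which 7 were in all 4 lists (10.4%, beside 12.8% of all intergenic sites). Of these 67, 20 had a summit in RT7 4-OHT against 26 in RT7 EtOH (76.9%), and 28 in RT10 4-OHT against 36 in RT10 EtOH (77.8%), beside 49.1% in RT7 and 70.6% in RT10 over all intergenic sites. Of the sites whose nearest protein-coding gene had a known strand, 553 of 946 were nearer to its 5′ end than its 3′ end (58.5%, 55.2 to 61.6%), and among the 122 of these in all 4 lists the share was 51.6% (42.4 to 60.8%).

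A 4-OHT summit lay within 1000 bp of 41.2% of intergenic RT7 EtOH summits, beside 53.5% at gene ends and 36.9% inside genes. In RT10 these shares were 54.5%, 60.1% and 49.3%. Intergenic EtOH summits without any 4-OHT summit within 1000 bp numbered 385 of 655 in RT7 and 361 of 794 in RT10. They included 24 summits in the highest band of the RT7 EtOH list and 10 in that of RT10 EtOH. These band counts were not made for other summits. At gene ends too, within 250 bp, more was kept in the highest band (82.1% in RT7, 84.7% in RT10) than in the lowest (17.5% and 25.6%). A low number of strong summits among those missing is thus not particular to intergenic ones. The strongest intergenic summit without a 4-OHT partner in RT7 was the one near LOC115490435 at 128839573. It scored 28.1 in RT7 EtOH, had no score in the other lists and lay 1338 bp from the nearest RT7 4-OHT summit. Next came a summit on chromosome 14 at 105859302, 32645 bp from Spry2, an inhibitor of growth factor signalling, which scored 21.3 in RT7 EtOH, 13.1 in RT10 4-OHT and 14.6 in RT10 EtOH. A summit 8571 bp from Lax1 scored 20.6 in RT7 EtOH, 7.79 in RT10 4-OHT and 16.3 in RT10 EtOH. The Spry2 and Lax1 summits were thus missing from RT7 4-OHT only, and not from the other 3 lists.

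The strongest in RT10 stood alone on the X chromosome at 128363678, 11717 bp from the pseudogene Gm4916, with a score of 42.3 in RT10 EtOH and no summit in the other 3 lists. The next, 2398 bp from Tbc1d13, scored 18.7 in RT10 EtOH, 7.18 in RT7 4-OHT and 5.57 in RT7 EtOH. A summit 937 bp from the pseudogene Rtraf-ps on chromosome 3 scored 14.3 in RT10 EtOH and 14.8 in RT7 EtOH and was in neither 4-OHT list. It was the leading site of the 90 that had, within 1000 bp, a summit in both EtOH lists and neither 4-OHT list. Their median percentile was 34.3, against 57.8 for the 246 with a summit of each list within that distance.

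In the other direction, an RT7 EtOH summit lay within 1000 bp of 83.7% of intergenic RT7 4-OHT summits. This share was 89.5% at gene ends and 83.5% inside genes. In RT10 it was 74.96% for intergenic summits, 85.8% at gene ends and 69.6% inside genes. A missing EtOH partner was thus not particular to intergenic summits. Of the 326 intergenic RT7 4-OHT summits, 53 had no RT7 EtOH summit within 1000 bp. None of the 53 was in the highest band of its list, a count not made for summits at or inside genes in either line. The Id3 summit was the strongest of the 53. In RT10 they numbered 141 of 563, with 6 in the highest band. The strongest, on chromosome 1 at 114849852 and 834885 bp from Cntnap5a, scored 17.9 in RT10 4-OHT and had no summit in the other 3 lists. A summit 2260 bp from Ubqln4 scored 13.4 in RT10 4-OHT, 14.1 in RT7 4-OHT and 35.1 in RT7 EtOH, so it was missing from RT10 EtOH only, where the nearest summit lay 1071 bp away.

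Intergenic sites called in both lists of 1 line and, within 1000 bp, in neither list of the other numbered 30 in RT7 and 88 in RT10. Each RT10 list is longer than the RT7 list of the same treatment, and sites without intergenic summits were not counted this way. The counts therefore do not show a difference between the lines in intergenic binding. In RT7 the strongest of the 30 was on chromosome 8 at 121832810, 1181 bp from the 5′ end of Gm42048, with a score of 22.8 in RT7 4-OHT and 36.1 in RT7 EtOH. In RT10 the Ier2 site above was far ahead of the next, on chromosome 4 at 10932544, which scored 18.0 in RT10 4-OHT and 15.2 in RT10 EtOH.

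The sites lay on all autosomes and the X chromosome, with 121 on chromosome 6, 103 on chromosome 13 and 15 on the X chromosome. Intergenic sites made up 26.9% of all TBP sites, with a range over chromosomes of 17.3% on chromosome 7 to 37.7% on chromosome 3. The nearest gene was protein-coding for 640 sites, a lncRNA for 295, a pseudogene for 175, a tRNA for 49 and a miRNA for 25, of which 7 miRNA sites were in all 4 lists. The median distance to the nearest other TBP site of any kind was 7170 bp, and 320 sites had none within 100 kb (25.9%). The members nearest to the 500 bp limit lay 503 bp from n-TMcat13 with a score of 4.93, 506 bp from n-TTtgt2 with a score of 33.4 and 507 bp from Tnrc6b with a score of 8.24. Just left out were summits 500 bp from C330020E22Rik with a score of 3.01, 498 bp from Cactin with a score of 7.68 and 498 bp from Zfp958 with a score of 2.00.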

How the data were processed

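The submitters' processing notes name cutadapt 4.0, Bowtie2 2.4.4, SAMtools 1.15.1, MACS2 2.2.7.1, bedtools and deepTools with mm10, and give no roles or settings. Each deposited list holds 1 score per summit, read as the −log10 q-value because of the format and of lowest values near the −log10 of 0.05. The sources used here do not state whether the authors pooled the 2 TBP libraries of a group. Peak names pair TBP with IgG. Of the IgG libraries, RT7 EtOH and RT10 4-OHT carry a treatment label at odds with their title, which was followed. Read depth is unknown. TAF7, TAF10 and TAF12 libraries were not analysed here.

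Summits were placed against 49943 RefSeq genes of GRCm38.p6, the assembly of mm10. Strand came from the RefSeq promoter table (27025 genes). No genome sequence was used, so no site sequence is shown. A site is placed at the median of its summits. Shares have exact Clopper-Pearson intervals. With 1 list per group, no test was possible. The code was tested on simulated data with known classes and kept sets. Software was Python 3.11.15 with NumPy 2.4.6, pandas 2.3.3, SciPy 1.17.1 and, for figures, matplotlib 3.10.9.

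Named sites were the 5 per distance class in most lists with the highest mean percentile, the highest summits per list without one of the other treatment within 1000 bp, the 6 largest groups, the sites of each gene list in most lists, and the 3 summits on each side of the 500 bp limit. The further pluripotency sites, and those called in 1 line only, were chosen after their values were seen. The rule for intergenic sites and the gene lists were chosen with earlier results of these data known. Alternatives varied the gene end distance (250, 1000 and 2000 bp), the gene set (no predicted models), the shared distance (100, 500 and 1000 bp), the minimum score (10), the chromosomes (autosomes and X), the list length (made equal) and the group gap (25, 50 and 200 kb).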

Additional observations from a re-analysis of the deposited data

Results flagged for a closer look

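At 36 intergenic sites a summit was present, within 1000 bp, in RT10 4-OHT and RT7 EtOH and in neither RT7 4-OHT nor RT10 EtOH. At 15 sites the reverse held, with a summit in RT7 4-OHT and RT10 EtOH only. In both kinds the lines differ in opposite directions between the treatments, and with 1 list per group that difference was not tested. RT10 4-OHT and RT7 EtOH, which share the 36 sites, are also the 2 lists whose IgG library has a treatment label at odds with its title; whether a control bears on these counts was not tested. The sites with the highest mean percentile of the first kind lay 9775 bp from the lncRNA gene Gm38137 and 2792 bp from the 5′ end of Ubd. The Gm38137 site scored 6.85 in RT10 4-OHT and 14.8 in RT7 EtOH, and the Ubd site 6.33 in RT10 4-OHT and 11.5 in RT7 EtOH. An example of the second kind, the site 597 bp from the 5′ end of Brwd1 scored 3.55 in RT7 4-OHT and 13.5 in RT10 EtOH.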

How the results depend on the processing

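Over 13 alternatives, 65 of 117 recomputed values stayed within the interval of the value given above, or for counts within 1.5 times it, and 52 did not; none of the 14 values has a test. With autosomes and X only, and with group gaps of 25, 50 and 200 kb, all stayed within it. In the following, lists run RT7 4-OHT, RT7 EtOH, RT10 4-OHT, RT10 EtOH. The intergenic share was 29.8, 30.0, 31.3 and 29.9% with a gene end distance of 250 bp, 20.6, 22.4, 23.7 and 23.4% with 1000 bp, 17.4, 19.1, 20.6 and 20.2% with 2000 bp, 28.7, 30.6, 31.7 and 31.5% without predicted gene models, and 17.5, 19.4, 21.3 and 22.2% for scores of at least 10. Scores of at least 10 left 61, 148, 134 and 202 intergenic summits, 34 sites in all 4 lists and 17 groups. With lists of equal length, RT7 EtOH, RT10 4-OHT and RT10 EtOH held 306, 316 and 316 intergenic summits (22.2, 22.9 and 22.9%). The kept share of EtOH summits in RT7 and RT10 was 52.9 and 59.8% with equal lists, and 20.6 and 30.5%, 38.3 and 51.0%, and 41.2 and 54.5% with shared distances of 100, 500 and 1000 bp. The share of 4-OHT summits with an EtOH partner in RT7 and RT10 was 50 and 60.1% with equal lists, 85.2 and 71.6% for scores of at least 10, and 42.0 and 43.0%, 78.2 and 72.1%, and 83.7 and 74.96% with these 3 distances. A shared distance of 100 bp left 89 sites in all 4 lists, and 1000 bp left 65 groups. Apart from the alternatives' own construction (fewer summits, genes or matches), the cause was not tested. No paired analysis was possible because the lists carry no replicate number. With 1 list per group and unknown read depth, a site absent from a list cannot be told apart from a site below the detection limit.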
